A study of Danio rerio with 8 samples.

Results

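The genes of the zebrafish hatching gland were compared between 4 libraries of whole nphp8 mutant larvae and 4 libraries of control larvae. They were chosen by gene symbol, ignoring case, as he1.1, he1.2, he1.3, he2, ctslb, klf17 and cd63, and 6 of these 7 symbols matched a row among the 32520 genes of the table. No row carries the symbol he2, a name that the RefSeq gene table lists as a synonym of he1.3, so it adds no values of its own. All 6 rows passed the filter of a mean of at least 1 TPM, a unit of transcript abundance per length whose total is the same for each library.

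The mutants carried nphp8(sa24730) on both chromosomes and, by the series' design, also came from mutant mothers (maternal zygotic mutants). The controls are labelled as wild type in genotype, while the design calls them siblings of the mutants. Mothers mutant on both chromosomes cannot bear wild-type larvae, so a clutch shared by both groups cannot be assumed. Larvae of both groups were 2 days old and received no treatment, and total RNA was taken from the whole animal. Neither the number of larvae or clutches behind a library nor whether the larvae had hatched is stated in the labels, so p-values reflect how much these libraries vary, and that variation may be technical alone. The age is given in days alone. A difference between the groups in developmental stage, mother or clutch cannot be told apart from genotype.

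The hatching gland is a transient sheet of secretory cells on the yolk of the fish embryo. It stores proteases in granules and releases them at hatching to digest the chorion, the egg envelope, after which its cells are lost. Its transcripts are therefore used as a clock of the days around hatching. The he1 genes encode the hatching enzyme, a zinc metalloprotease of the astacin family. The gene ctslb encodes a cathepsin L and is also known as hgg1, hatching gland gene 1. The Krüppel-like factor klf17 is a transcription factor of the gland and of early blood, and CD63 is a tetraspanin of secretory granules and lysosomes that many other cells also express.

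The labels were first checked on the mutated gene, listed as RPGRIP1L (ENSDARG00000051754), which stood at 0.75, 0.72, 0.77 and 0.78 TPM in mutant replicates 1 to 4, against 2.75, 2.6, 2.26 and 2.17 TPM in control replicates 1 to 4. All mutant libraries lay below all controls, a separation that 14.8% of all genes tested also had, so by itself it is a weak check. TPM carries no depth, and the reads behind each library cannot be counted from it. The mutant libraries listed 23637 to 23829 genes above 0 and the controls 23690 to 23964.

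Transcripts of the he1 genes and of ctslb were lower in the mutants, with mean decreases from 11.8% for he1.1 to 49.0% for he1.3. Of the 6 genes, 4 fell (he1.1, he1.2, he1.3 and ctslb), 0 rose, and klf17 and CD63 did not pass the test (limma on log2(TPM + 1), adjusted p under 0.05 over 16560 genes). Among all genes tested 13.3% were called lower, 9.32% higher and 22.6% changed in either direction. The median log2 change of the 6 genes was -0.19, beside -0.01 for all genes tested. Among all genes called lower it was -0.26, but the median of the 6 includes klf17 and CD63, which were not called. In a whole animal, fewer gland cells and less RNA per gland cell cannot be told apart.

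The transcript of he1.1 (ENSDARG00000023656), on chromosome 22, was the most abundant of the 6. It stood at 3568, 3541, 3708 and 3542 TPM in mutant replicates 1 to 4 and at 4088, 4028, 4021 and 4144 TPM in control replicates 1 to 4. The groups did not overlap, and the highest mutant, replicate 3, lay 312 TPM below the lowest control. The means were 3589.7 ± 79.9 TPM in mutants and 4070.1 ± 57.6 TPM in controls (SD, n = 4 each), which is 11.8% lower in the mutants. On the log2 scale he1.1 fell by 0.18 (SE 0.0204, limma adjusted p = 0.000204). Counted by abundance, it ranked between 57 and 61 among all genes in the mutant libraries and between 42 and 45 in the controls.

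The second copy, he1.2 (ENSDARG00000019122), lies with he1.1 and he1.3 in an uninterrupted run of the RefSeq gene order. It fell by nearly the same proportion as he1.1. Its levels were 864, 875, 878 and 883 TPM in mutant replicates 1 to 4, against 1001, 1034, 964 and 1014 TPM in control replicates 1 to 4. Every mutant library was again below every control. The mean was 875 ± 8.27 TPM in mutants and 1003 ± 29.5 TPM in controls (SD, n = 4 each), 12.8% lower, with a log2 change of -0.20 (SE 0.0232, limma adjusted p = 0.000273).

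The third copy, he1.3 (ENSDARG00000022670), of the same run, was scarce and had the largest proportional difference of the 6 genes. It stood at 2.8, 2.91, 3.17 and 2.83 TPM in mutant replicates 1 to 4, against 7.1, 4.17, 5.98 and 5.73 TPM in control replicates 1 to 4. The groups did not overlap, although the controls were spread widely, with replicate 2 closest to the mutants. The mean was 2.93 ± 0.168 TPM in mutants and 5.745 ± 1.21 TPM in controls (SD, n = 4 each), a ratio of 0.51. He1.3 fell by 0.76 on the log2 scale (SE 0.119, limma adjusted p = 0.0015). At so low a level the log2 change depends on the pseudocount and was -0.93 with 0.1 and -0.43 with 5 in place of 1.

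RSEM, the program that assigned the reads, divides those that fit several he1 copies by an estimate, so the 3 rows were also added up. Summed he1 was 4434, 4419, 4589.5 and 4428 TPM in mutant replicates 1 to 4, against 5096, 5066, 4990.3 and 5163 TPM in control replicates 1 to 4. No mutant library reached the control range. The sum averaged 4467.5 ± 81.6 TPM in mutants and 5079 ± 71.6 TPM in controls (SD, n = 4 each), a ratio of 0.88, and fell by 0.19 on the log2 scale when fitted as 1 row in place of the 3 (SE 0.0190, limma adjusted p = 0.000114). The sum made up 0.442% to 0.459% of all TPM in the mutant libraries and 0.499% to 0.516% in the controls.

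The cathepsin gene ctslb (ENSDARG00000074306), on chromosome 12, fell by more than he1.1. It was at 305, 316, 314 and 308 TPM in mutant replicates 1 to 4, and at 391, 386, 379 and 393 TPM in control replicates 1 to 4. A gap of 63.0 TPM separated the groups. The mean was 311 ± 5.06 TPM in mutants and 387 ± 6.33 TPM in controls (SD, n = 4 each), 19.8% lower. Ctslb fell by 0.32 on the log2 scale (SE 0.0211, limma adjusted p = 5.77e-06).

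The transcription factor gene klf17 (ENSDARG00000038792), on chromosome 2, had a lower mean in the mutants but did not pass the test. Its levels were 12.84, 12.49, 13.83 and 12.49 TPM in mutant replicates 1 to 4, against 13.23, 15.45, 14.53 and 14.04 TPM in control replicates 1 to 4. Mutant replicate 3 lay within the control range, above control replicate 1. The mean was 12.9 ± 0.634 TPM in mutants and 14.3 ± 0.929 TPM in controls (SD, n = 4 each), with a log2 change of -0.14, a 95% interval of -0.26 to -0.017 and a limma adjusted p = 0.0967.

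CD63 (ENSDARG00000025147), on chromosome 23, differed least. It stood at 162, 159, 164 and 159 TPM in mutant replicates 1 to 4, against 171, 162, 164 and 173 TPM in control replicates 1 to 4. Mutant replicate 3 again lay within the control range. The mean was 161 ± 2.72 TPM in mutants and 168 ± 5.12 TPM in controls (SD, n = 4 each), with a log2 change of -0.06, a 95% interval of -0.12 to 0.000769 and a limma adjusted p = 0.146.

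**Figure D1:**
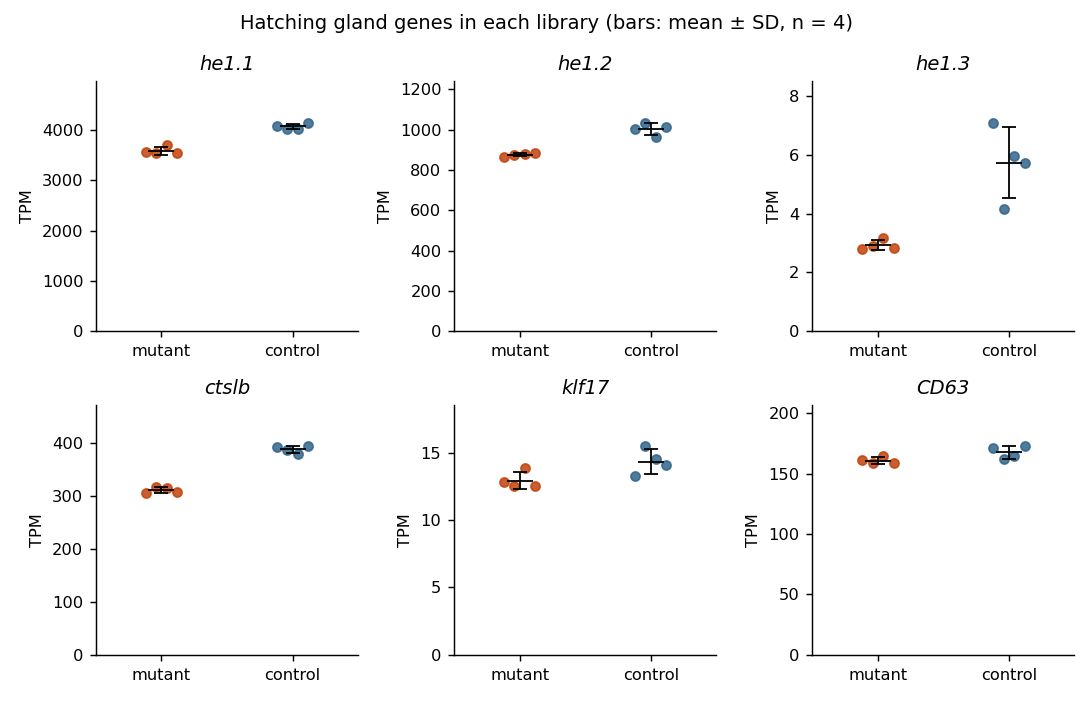
TPM of the 6 hatching gland genes (vertical axes, each starting at 0) in the 4 mutant and the 4 control libraries, with bars for the mean and SD. All mutant points of he1.1, he1.2, he1.3 and ctslb lie below all control points, while for klf17 and CD63 mutant replicate 3 lies within the control range.

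Taking the 6 genes one beside another, 4 had groups that did not overlap, each with the mutants lower. Of all genes tested, 14.8% had every mutant below every control, and 26.1% had no overlap in either direction. The order of mean levels was the same in both groups, from he1.1 through he1.2, ctslb, CD63 and klf17 to he1.3, and no neighbours in that order overlapped in any pair of libraries. Variation within a group was small for the abundant genes. The coefficient of variation of he1.1 was 2.23% in mutants and 1.42% in controls, and that of ctslb 1.63% in each, whereas that of he1.3 was 5.75% in mutants and 21.0% in controls.

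Replicates of a group did not deviate in the same direction for all genes. Mutant replicate 3 was the highest mutant for he1.1, he1.3, klf17 and CD63, but mutant replicate 4 was the highest for he1.2 and mutant replicate 2 for ctslb. Among the controls, replicate 3 was lowest for he1.1, he1.2 and ctslb, whereas replicate 2 was lowest for he1.3 and CD63 and highest for he1.2 and klf17.

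**Figure D2:**
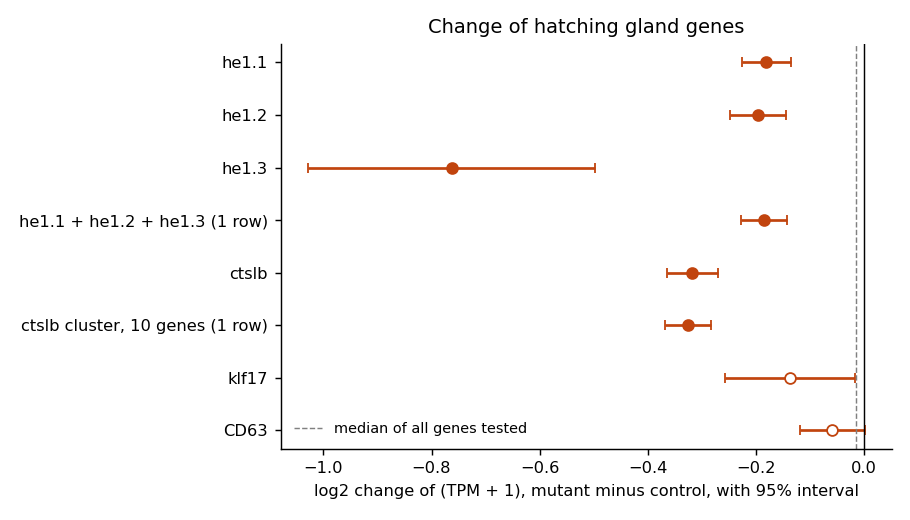
Log2 change of TPM + 1 (horizontal axis, mutant minus control) with 95% intervals for the 6 genes, for he1.1, he1.2 and he1.3 added into 1 row, and for the 10 genes of the ctslb cluster added into 1 row. Filled points passed the test and open points did not, and the dashed line marks the median of all genes tested at -0.01.

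Whether the genes fell by a common factor was examined with ratios to he1.1 within each library, which do not depend on how libraries were scaled. He1.2 kept its proportion, at 24.4% ± 0.555 of he1.1 in mutants and 24.6% ± 0.722 in controls (SD, n = 4 each), and the ranges overlapped (log2 difference -0.016, exact permutation p = 0.6). Klf17 likewise had overlapping ratios, 0.36% ± 0.00957 of he1.1 in mutants and 0.352% ± 0.0262 in controls (exact permutation p = 0.571). Neither result shows that these ratios are equal.

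The other ratios separated the groups completely. The share of all genes tested whose ratio to he1.1 does the same was not computed. The ratio of ctslb to he1.1 was 8.55%, 8.91%, 8.46% and 8.69% in mutant replicates 1 to 4, against 9.57%, 9.59%, 9.42% and 9.48% in control replicates 1 to 4, a log2 difference of -0.14. That of he1.3 to he1.1 was 0.0815% ± 0.00306 in mutants and 0.141% ± 0.0291 in controls (SD, n = 4 each), a log2 difference of -0.77. That of CD63 to he1.1 was higher in the mutants, at 4.48% ± 0.0403, against 4.12% ± 0.0749 in controls, a log2 difference of 0.12. The denominator he1.1 itself fell by 0.18 on the log2 scale. A gene of little spread that did not change would therefore also have a higher ratio in the mutants. CD63 taken alone had a log2 change of -0.06 and did not pass the test. Reads that fit several he1 copies are divided by an estimate, and the part of that division in the he1.3 ratio was not tested.

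Each of these ratios of ctslb, he1.3 and CD63 reached p = 0.0286, the smallest two-sided value that the exact permutation test over 70 assignments of 8 libraries can give, and an adjusted p = 0.0477 over the 5 ratios. With summed he1 as the denominator there were 6 ratios. The same 3 again had an exact p = 0.0286, but an adjusted p = 0.0572, which is above 0.05.

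**Figure D3:**
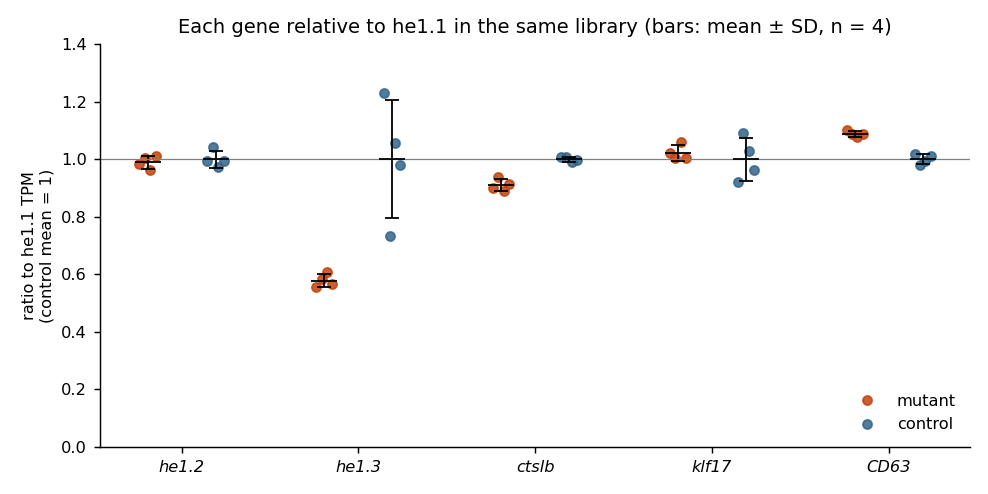
Ratio of each gene to he1.1 in the same library, divided by its mean over the controls (vertical axis), for 4 mutant and 4 control libraries, with bars for the mean and SD. Mutant points lie below all control points for he1.3 and ctslb and above them for CD63, and the groups overlap for he1.2 and klf17.

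The gene ctslb is not alone on its chromosome. In the RefSeq gene order, 8 genes on chromosome 12 carry a ctsl name or synonym and lie within a stretch of 21 genes. Of the genes between them, si:dkey-239j18.3 and si:dkey-26g8.4, which lack such a name, also matched a row. This cluster of 10 rows, ctslb included, was singled out after its values were seen. Of the 10, 8 fell, 1 rose and 1 did not pass, with a median log2 change of -0.31 (limma, all genes tested). Over all genes tested the shares called were 13.3% lower and 9.32% higher.

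The 10 rows of the cluster together were less abundant than summed he1 in both groups. Their sum was between 3124 and 3236 TPM in the mutant libraries and between 3898 and 4051 TPM in the controls, without overlap. It averaged 3163 ± 50.9 TPM in mutants and 3966 ± 66.5 TPM in controls (SD, n = 4 each), 20.2% lower, with a log2 change of -0.33 as 1 row (limma adjusted p = 2.68e-06). That is close to the 19.8% of ctslb taken alone, but the cluster holds ctslb itself.

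The genes of the cluster did not all follow ctslb. The largest decrease in the cluster was that of si:dkey-239j18.2 (ENSDARG00000095254), at 214 ± 4.68 TPM in mutants and 389 ± 1.46 TPM in controls (SD, n = 4 each), a ratio of 0.551 (log2 change -0.86, limma adjusted p = 5.85e-09). The most abundant gene, zgc:174855, was at 854 ± 19.3 TPM in mutants and 1057 ± 27.5 TPM in controls, a ratio of 0.808, and si:dkey-26g8.5 and zgc:174153 had ratios of 0.772 and 0.764. Smaller decreases were those of ctslb.4 (ratio 0.872), si:dkey-269i1.4 (0.86) and si:dkey-239j18.3 (0.841).

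Against these, zgc:174154 (ENSDARG00000075527) rose to 81.6 ± 0.673 TPM in mutants, against 64.5 ± 3.12 TPM in controls (SD, n = 4 each; log2 change 0.34, limma adjusted p = 0.000111). The gene si:dkey-26g8.4 was listed at 97.3, 40.2, 0.1 and 9.8 TPM in mutant replicates 1 to 4 and at 64.9, 0, 62.9 and 35.1 TPM in control replicates 1 to 4. It varied from at or near 0 to its highest values within each group, while the other genes of the cluster varied little. Any reads that fit several of these genes are divided by an estimate here too. How alike their sequences are was not examined, and the part of that division in the single rows was not tested.

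**Figure D4:**
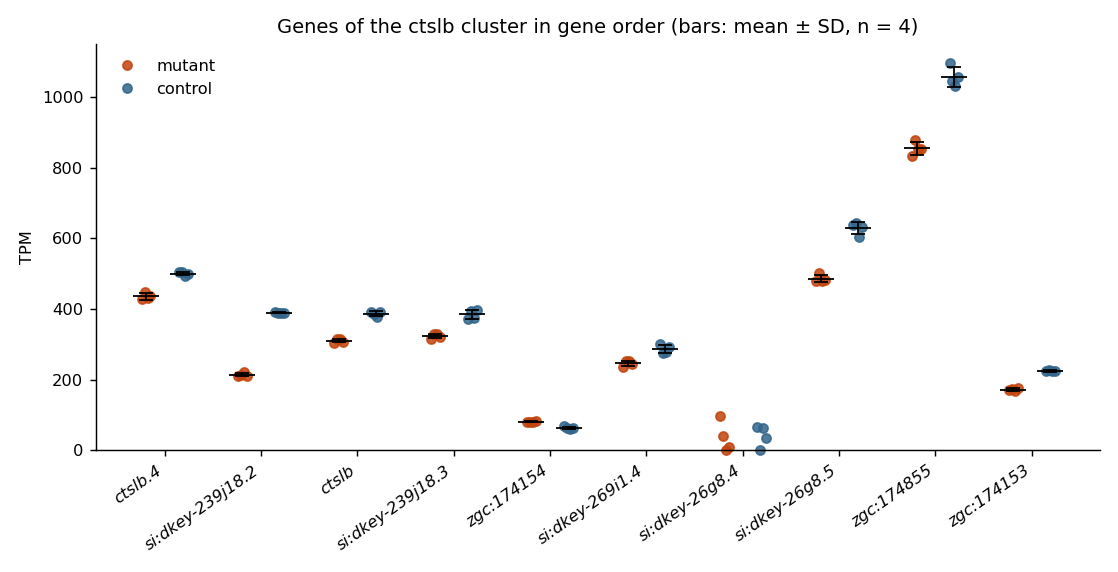
TPM (vertical axis) of the 10 genes of the ctslb cluster, left to right in their order along chromosome 12 in RefSeq, in 4 mutant and 4 control libraries, with bars for the mean and SD except for si:dkey-26g8.4. Mutant points lie below control points in 8 genes and above them in zgc:174154, and those of si:dkey-26g8.4 range from near 0 to 97.3 TPM in mutants and from 0 to 64.9 TPM in controls.

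Cathepsins of the same family elsewhere in the genome showed no shared direction. Of 8 such genes matched, 7 were tested, and ctsll rose 3.59-fold, to 6.80 ± 0.634 TPM in mutants against 1.90 ± 0.191 TPM in controls (SD, n = 4 each, limma adjusted p = 1.65e-06). CTSK, cathepsin K, a collagen-degrading protease of bone (ratio 0.623), and the cathepsin S gene ctss2.1 (ratio 0.656) fell. The other 4 did not pass, among them ctsla, another zebrafish cathepsin L gene, named here after its values were seen. It stood at 1139 ± 28.7 TPM in mutants and 1162 ± 7.65 TPM in controls (limma adjusted p = 0.365). The median log2 change of the 7 was -0.03, and 13.3% of all genes tested were called lower and 9.32% higher.

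Most relatives of the hatching enzyme were below the filter. Of 13 astacin family genes matched, 10 averaged under 1 TPM. The other 3 were npsn, at 32.3 TPM in mutants and 33.3 TPM in controls, a BMP1 copy (ENSDARG00000028071), at 12.7 TPM in mutants and 11.8 TPM in controls, and hce2l2, at 1.02 TPM in mutants and 1.06 TPM in controls. Of these 0 passed in limma, 0 of them at an unadjusted p under 0.05 as well. The astacin genes c6ast3 and c6ast4 were listed at 0 in every library. The summed level of the 13 was 46.0 to 49.3 TPM in mutants and 44.2 to 55.1 TPM in controls.

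Regulators of the gland and of secretory cells were examined with 14 genes, all of them tested. Of these 5 fell, 1 rose and 8 did not pass, with a median log2 change of -0.10, beside -0.01 for all genes. Among all genes tested 13.3% were called lower and 9.32% higher. XBP1, a transcription factor that builds up the secretory pathway, was at 205 ± 8.71 TPM in mutants and 234 ± 3.74 TPM in controls (SD, n = 4 each), with a log2 change of -0.19 (limma adjusted p = 0.00183). AGR2, a protein disulfide isomerase of secretory cells, was at 123 ± 6.02 TPM in mutants and 138 ± 3.27 TPM in controls, with a log2 change of -0.16 (limma adjusted p = 0.0106). These 2 calls held under every alternative listed in the closing section.

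The other calls of that list were lost when single libraries were left out. The forkhead gene foxa3 (ratio 0.849) and the Krüppel-like factor gene klf2b (0.78) fell, as did the epidermal factor gene TFAP2A (0.929), while KLF4 (ENSDARG00000079922, ratio 1.28) rose. Foxa3 lost its call without mutant replicate 2 or 4 or control replicate 1, 3 or 4 (limma adjusted p = 0.0543 to 0.0768), and klf2b without mutant replicate 2 or 3 or control replicate 3 or 4 (0.0503 to 0.0596). TFAP2A lost it without mutant replicate 1, 3 or 4 or control replicate 1, 3 or 4 (0.058 to 0.103), and KLF4 without mutant or control replicate 1, 2 or 3 (0.0773 to 0.0946). Of 5 lower calls 2 were left without control replicate 3 or 4, and 3 without mutant replicate 2, 3 or 4 or control replicate 1. PRDM1, the repressor that hatching gland formation requires in zebrafish, was at 8.90 ± 0.386 TPM in mutants and 9.38 ± 0.541 TPM in controls (limma adjusted p = 0.397), and klf2a and KLF6 did not pass either (ratios 0.962 and 0.956).

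Tetraspanins other than CD63 moved both ways. The test covered 12, of which 3 rose and 2 fell and the other 7 did not pass, with a median log2 change of 0.016. For all genes tested the shares were 9.32% higher and 13.3% lower. A CD82 copy (ENSDARG00000026070, ratio 1.44), tspan36, a pigment cell tetraspanin (1.14), and a CD151 copy (ENSDARG00000038288, 1.15) were higher, and cd9b (0.903) and a TSPAN3 copy (ENSDARG00000034753, 0.94) were lower. CD151 lost its call without mutant replicate 2 or 3 or any 1 control (limma adjusted p = 0.0521 to 0.083), and TSPAN3 without any 1 mutant or control replicate 1 or 4 (0.0538 to 0.115).

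Markers of the skin around the gland and of macrophages, which also hold cathepsins and CD63, were measured alongside. Of 8 periderm and skin markers 3 fell and 0 rose, while 13.3% of all genes tested were called lower. Those that fell were krt17 (ratio 0.638), epcam (0.729) and icn (0.912). Krt4 (0.972), krt5 (0.957), krt1-c5 (0.942), TP63 (1.005) and cldni (1.04) did not pass. All 8 markers summed to 13406 to 13826 TPM in mutants and 13998 to 14269 TPM in controls, and none was at 0. Of this, krt4 averaged 9882 TPM in mutants and 10171 TPM in controls. Of 17 macrophage marker rows 7 were tested and 3 fell, beside the same 13.3% of all genes tested. The 3 were the MFAP4 copies ENSDARG00000090783 (ratio 0.579) and ENSDARG00000090557 (0.673) and LCP1 (0.852). The MFAP4 copy ENSDARG00000088745 (1.04), the MPEG1 copy ENSDARG00000055290 (0.866), csf1ra (0.931) and SPI1 (0.842) did not pass. All 17 rows summed to 93.0 to 101 TPM in mutants and 114 to 132 TPM in controls. Of the 17, 10 averaged below 1 TPM and 0 were at 0 throughout. The part of skin and macrophage cells in the levels of ctslb and CD63 was not tested.

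The 5 genes whose level across the 8 libraries was most like that of summed he1, of 7221 with a mean of at least 10 TPM, were fbp1b, clk4a, G6PC1, trpm1b and NQO1. Pearson's r on log2(TPM + 1) ran from 0.992 for NQO1 to 0.995 for fbp1b, and 250 genes were above 0.95. Deviations from the group means gave r between 0.831 for trpm1b and 0.896 for fbp1b. Because the 5 were picked by r over these same 8 libraries, these values are not separate support for a likeness. The closest, fbp1b, was at 116 ± 1.8 TPM in mutants and 133 ± 1.56 TPM in controls (SD, n = 4 each), a ratio of 0.871 beside 0.88 for summed he1.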

How the data were processed

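Whole-larva RNA was sequenced in 4 nphp8 mutant and 4 control samples, grouped and numbered by their titles. Reads were handled with STAR 2.7.3a and RSEM 1.3.1 on build GRCz11, per the submitters' processing notes, and the authors deposited TPM per Ensembl gene. TPM keeps no depth, so no counting interval is given. No source used here gives the strand setting, so overlapping genes are uncertain. Symbols came from a gene name table (29201 of 32520 identifiers, 89.8%), and gene order and chromosomes from RefSeq on GRCz12tu. List entries without an exact match were matched without their copy letter or number.

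Genes averaging 1 TPM or more were tested on log2(TPM + 1) with limma 3.58.1 (trend, two-sided, no covariate) in R 4.3.3, with Benjamini-Hochberg adjustment over all genes. The fit was also run on simulated data with far fewer changed genes, so that run does not give the error rate here. Log2 changes are mutant minus control, and the pseudocount of 1 understates those of low genes. Ratios are of mean TPM. Ratios within libraries had exact permutation tests (Python 3.11.15). Alternatives changed the pseudocount, filter, scaling, trend and block, summed copies, or left out a library. Named were all members and, from each companion list, up to 6 called genes by size of change, the whole ctslb cluster, and PRDM1, XBP1 and the Krüppel-like factors. Members and lists were chosen with earlier results of these data known. Promoter and protein sequences were not used here.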

Additional observations from a re-analysis of the deposited data

Results flagged for a closer look

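Of 90 groups of 4 libraries examined for a library far from the other 3, 5 were picked out, and chance picks about 1 in 20. Mutant replicate 3 stood apart for he1.1, at 3708.2 TPM against 3541 to 3568 TPM in the other mutants, and for summed he1, at 4589.5 TPM against 4419 to 4434 TPM. It lay on the side of the controls, and without it the log2 changes were -0.197 for he1.1 and -0.198 for summed he1.

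In the ctslb cluster, mutant replicate 2 stood apart for si:dkey-26g8.5, at 502.06 TPM against 480 to 482 TPM in the other mutants, and control replicate 2 for zgc:174153, at 228.63 TPM against 223.6 to 224.4 TPM in the other controls. Among the skin markers, control replicate 2 stood apart for epcam, at 66.85 TPM against 73.1 to 73.4 TPM in the other controls.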

How the results depend on the processing

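The calls of he1.1, he1.2, summed he1, ctslb and the summed ctslb cluster, and the absence of a call for klf17 and CD63, held under every alternative run. He1.3 held wherever it was tested and lay below a filter of 5 TPM. Adjusted p ranged up to 0.00747 for he1.1, 0.0063 for he1.2, 0.00604 for he1.3 and 0.000533 for ctslb, and down to 0.052 for klf17 and 0.0931 for CD63. Leaving out 1 library gave log2 changes of -0.197 to -0.173 for he1.1, -0.885 to -0.669 for he1.3 and -0.328 to -0.309 for ctslb. With he1 copies summed, 1 of the 6 genes, ctslb, was still counted as lower by itself, because the others had become 1 row. Over summed he1 the log2 differences of ratios were -0.76 for he1.3, -0.13 for ctslb and 0.13 for CD63, each with an adjusted p = 0.0572 because 6 ratios were adjusted in place of 5. Klf2a, which did not pass, changed sign when single libraries were left out (log2 change -0.119 to 0.0141, positive without mutant replicate 4). Of the companion genes with a call, KLF4, klf2b, foxa3, TFAP2A, CD151 and TSPAN3 lost it when some single libraries were left out. The others, XBP1 and AGR2 among them, kept theirs wherever they were tested. KLF4, foxa3, TFAP2A, CD151 and TSPAN3 also lost theirs with a replicate block. TFAP2A and TSPAN3 did so with median-of-ratios scaling and in limma without the trend. These 2 also did so with scaling that left out mitochondrial and the 50 most abundant genes. With no filter KLF4, CD151 and TFAP2A lost theirs. Rescaling moved the median log2 change of all genes by under 0.1. Replicates with the same number in both groups did not deviate together (correlations of -0.102 to -0.0288), and with a replicate block the adjusted p was 0.00378 for he1.1 and 0.000533 for ctslb, with 1171 genes higher and 1761 lower, against 1543 and 2202 without it. Sequencing depth is unknown, so the precision of he1.3, at a few TPM, cannot be stated.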
